A study of Mus musculus with 24 samples.

Results

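The regions described here are the open chromatin peaks of the genes for lysosomal cathepsins, lysosome-associated membrane proteins (LAMPs) and the vacuolar proton pump (V-ATPase). They number 309 of the 144411 peaks in the deposited count table and were chosen by gene name alone: 180 carry such a gene in the authors' peak annotation, and 129 have no row there but lie within 50 kb of the listed transcription start site (TSS) of such a gene, which is the nearest one listed. The peaks belong to 34 genes. Of these, 11 are cathepsin genes with 126 peaks, 4 are LAMP genes with 32 peaks and 19 are V-ATPase genes with 151 peaks. No peak fell to Ctsw. After the removal of peaks with low counts, 296 of the 309 were tested and 13 were not.

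The data are ATAC-seq libraries, in which a transposase cuts and tags accessible DNA, from macrophages grown out of the bone marrow of male C57BL/6 mice aged 8 to 10 weeks during 5 days in L-cell conditioned medium. Cells were LysM-Cre+/+; GRIP1fl/fl (KO) or LysM-Cre+/+; GRIP1wt/wt (WT), so that both genotypes carry a Cre recombinase driven by the myeloid lysozyme M gene, and KO cells also carry floxed alleles of GRIP1, a coactivator of nuclear receptors encoded by Ncoa2. Each genotype received interleukin 4 (IL4, 10 ng/ml), dexamethasone (Dex, a synthetic glucocorticoid, 100 nM) or vehicle, with 4 libraries in each of the 6 groups. The titles give 24 hours for all groups, and the treatment label gives 25 hours for vehicle. Whether the 4 libraries of one group stem from different mice, or from different dishes, is not stated in the labels, and the p-values therefore measure the spread between libraries alone, which may be technical.

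The lysosome digests what a macrophage takes up. The V-ATPase acidifies it: the V1 sector in the cytosol splits ATP, and the V0 sector in the membrane carries protons inward. Cathepsins are the proteases that work in this acid (mostly cysteine proteases, with the aspartic protease cathepsin D and the serine carboxypeptidase cathepsin A), and LAMP1 and LAMP2 are heavily glycosylated proteins that line the membrane. Many of these genes carry an E-box in their promoters that the transcription factors of the MiT/TFE family (TFEB, TFE3, MITF and TFEC) bind. IL4 signals through STAT6, and Dex through the glucocorticoid receptor.

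Levels are given as CPM, the counts of a library scaled to a common total after TMM scaling, differences as log2 fold changes ± standard error (SE), and a peak was called at a Benjamini-Hochberg adjusted p below 0.05 in edgeR's quasi-likelihood F test over all 130103 tested peaks. The gene given for a peak is the one with the closest TSS and need not be the gene it acts on. In bulk samples, fewer cells with an open site and less opening per cell cannot be told apart. Libraries held 5820149 to 21939330 counts in peaks, of which the 309 peaks took 0.260 to 0.287%. The shallowest library, WT Dex replicate 2, had no count in 2.57% of all peaks and stood apart on the fourth principal component. All 14 macrophage marker genes with a tested peak, of 15 listed, had a start-site peak (6.52 to 62.0 CPM, median 30.1), while the medians for marker lists of other cell types ran from 2.77 to 7.49 CPM. These medians cover only genes with a start-site peak. The highest such peak of each of these lists lay between 3.93 and 28.5 CPM, so the ranges overlap that of the macrophage list in part. Around Ncoa2, 1 peak 49.7 kb upstream (chr1:13423543-13423943) was 2.96 ± 0.21 higher in KO than in WT with vehicle, and 1 peak 116.0 kb downstream (chr1:13256160-13256636) was lower by -1.15 ± 0.16. The sources used here do not place the floxed exons, so these values do not check the deletion.

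Of the 309 peaks, 129 lie inside their own gene, 35 inside another gene and 145 between genes. The median length is 455 bases, against 392 for all peaks. Only 32 peaks lie within 1 kb of a listed TSS. They cover 25 of the 34 genes, and the other 9 genes have none within 1 kb of a listed TSS. Of the 180 peaks with a row, 45 overlap an enhancer of the FANTOM catalogue in the authors' annotation. The RefSeq promoter table (GRCm38.p6, the mm10 sequence; 250 bases before to 50 after the start) has 31 promoters for 26 of the genes. G and C made up a median of 56.0% of their bases, against 52.7% over all promoters in the table. The motif shares below are not matched for this base content. The E-box core CACGTG, which reads the same on both strands, occurs in 8 of the 31 (25.8%), against 7.15% of all 32851 promoters in the table. Its extended form GTCACGTG, on either strand and part of the same match, occurs in 4 of the 31 (12.9%), against 2.25% of all. The genes with the extended form are Atp6v0d1, Ctsa, Ctsd and Lamp1. GGAAGT, a core bound by the myeloid factor PU.1, occurs on either strand in 12 (38.7%), against 23.8% of all. The spaced palindrome TTCNNNNGAA, a STAT6 motif, occurs in 2 (6.45%), against 6.95% of all, and the glucocorticoid response element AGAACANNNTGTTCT in 0, against 0.00913% of all.

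The 4 promoters with the extended E-box are shown because each lies under a start-site peak measured here, and the Ctsk promoter because the peak over it opened with IL4. Capitals mark the E-box core CACGTG; the Ctsk promoter has none. They span chr7:142387778-142388077 (Ctsd, minus strand), chr8:13158911-13159210 (Lamp1, plus strand), chr2:164833523-164833822 (Ctsa, plus strand, one of its listed promoters), chr8:105566015-105566314 (Atp6v0d1, minus strand) and chr3:95498960-95499259 (Ctsk, plus strand).
Ctsd: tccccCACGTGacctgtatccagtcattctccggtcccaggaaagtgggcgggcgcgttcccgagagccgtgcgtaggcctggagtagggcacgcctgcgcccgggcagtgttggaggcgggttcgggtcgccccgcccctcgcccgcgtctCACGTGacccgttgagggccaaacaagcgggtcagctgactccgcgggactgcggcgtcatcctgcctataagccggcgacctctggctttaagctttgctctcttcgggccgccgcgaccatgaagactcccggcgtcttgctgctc
Lamp1: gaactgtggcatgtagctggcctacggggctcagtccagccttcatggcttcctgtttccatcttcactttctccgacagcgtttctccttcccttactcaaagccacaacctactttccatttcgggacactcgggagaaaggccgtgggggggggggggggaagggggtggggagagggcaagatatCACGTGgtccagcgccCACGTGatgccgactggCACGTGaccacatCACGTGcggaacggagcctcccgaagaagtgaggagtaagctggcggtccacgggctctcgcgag
Ctsa: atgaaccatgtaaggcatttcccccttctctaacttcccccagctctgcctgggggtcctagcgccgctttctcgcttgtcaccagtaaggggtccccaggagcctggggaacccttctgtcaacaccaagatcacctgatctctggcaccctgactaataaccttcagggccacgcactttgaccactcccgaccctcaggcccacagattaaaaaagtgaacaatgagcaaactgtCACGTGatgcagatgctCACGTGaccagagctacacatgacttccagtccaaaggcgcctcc
Atp6v0d1: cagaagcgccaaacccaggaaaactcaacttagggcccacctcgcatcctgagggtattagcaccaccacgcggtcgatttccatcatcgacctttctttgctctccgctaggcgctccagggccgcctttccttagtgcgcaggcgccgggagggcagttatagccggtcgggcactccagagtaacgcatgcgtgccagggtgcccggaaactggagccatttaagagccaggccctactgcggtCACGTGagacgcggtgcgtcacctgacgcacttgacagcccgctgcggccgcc
Ctsk: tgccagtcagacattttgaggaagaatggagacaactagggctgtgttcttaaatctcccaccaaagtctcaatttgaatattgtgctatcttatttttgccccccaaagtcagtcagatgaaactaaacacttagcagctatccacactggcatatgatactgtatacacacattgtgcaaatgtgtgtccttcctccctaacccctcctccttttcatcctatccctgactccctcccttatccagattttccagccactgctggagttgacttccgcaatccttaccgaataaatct

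Counted from the TSS, the E-box begins at -245 and -98 in Ctsd, at -61, -45, -28 and -15 in Lamp1, at -12 and 5 in Ctsa, and at -3 in Atp6v0d1. With IL4 in WT cells, the peaks over the Ctsd and Atp6v0d1 promoters fell (log2 fold changes -0.34 ± 0.08 and -0.34 ± 0.06), and those over Lamp1 (-0.14 ± 0.08) and Ctsa (-0.06 ± 0.07) were not called. With loess offsets in place of TMM scaling both calls ended (-0.16 and -0.11, edgeR adjusted p = 0.0651 and 0.0823). Over the whole table IL4 lowered far more start-site peaks than it raised, with shares given further on, so such falls are not particular to these promoters. The peak over the Ctsk promoter, chr3:95498793-95499134, rose by 1.04 ± 0.17 (edgeR adjusted p = 2.18e-07). A motif match is a description of the sequence and not of a bound site.

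IL4 opened 79 and closed 51 of the 296 tested peaks in WT macrophages, which is 26.7% and 17.2% of them. Over all tested peaks the shares were 19.3% higher and 16.1% lower. The median log2 fold change was 0.02, against -0.01 over all tested peaks. With libraries scaled by total counts alone, 85 were higher and 36 lower, so 70.2% of the calls were higher in place of 60.8%. In the V0 sector 23 of 57 peaks rose and 5 fell. Of these, Atp6v0a1 and Atp6v0d2 held 19 of the rises and 1 of the falls at 31 peaks, and the other V0 genes, at 26 peaks, had 4 higher and 4 lower. Of 110 cysteine cathepsin peaks, 31 rose and 19 fell, or 28.2% and 17.3%, which is near the shares of the 296. The V1 sector had 18 peaks higher and 20 lower of 86. Of 30 LAMP peaks, 5 rose and 2 fell, and of the 10 peaks of Ctsd, 2 rose and 5 fell. In 25 of the 34 genes at least 1 peak rose, in 18 at least 1 fell, in 16 both occurred and in 7 neither. These counts by gene grow with the number of tested peaks of a gene, which runs from 1 to 31. No like share over all genes was taken, so they show no response particular to these genes. Among the libraries, the summed level of the 57 V0 peaks was 603 to 614 CPM with IL4, 556 to 581 CPM with Dex and 487 to 525 CPM with vehicle in WT, so these ranges do not overlap. Without Atp6v0a1 and Atp6v0d2, which were left out after their values were seen, the remaining 26 peaks summed to 331 to 340 CPM with IL4 and 320.3 to 347 CPM with vehicle, which overlap, and to 352 to 376 CPM with Dex. Several marker lists of other cell types also moved with IL4: the 57 peaks of 9 neutrophil genes summed to 279 to 288 CPM in WT IL4 and 214 to 238 CPM in WT vehicle libraries, and the 28 peaks of 5 erythroid and megakaryocyte genes to 185 to 203 CPM and 169 to 173 CPM. The 128 peaks of 14 macrophage genes summed to 1419 to 1447 CPM in WT IL4 and 1551 to 1644 CPM in WT vehicle libraries. The part of these lists in the values at the 296 peaks was not tested.

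**Figure D1:**
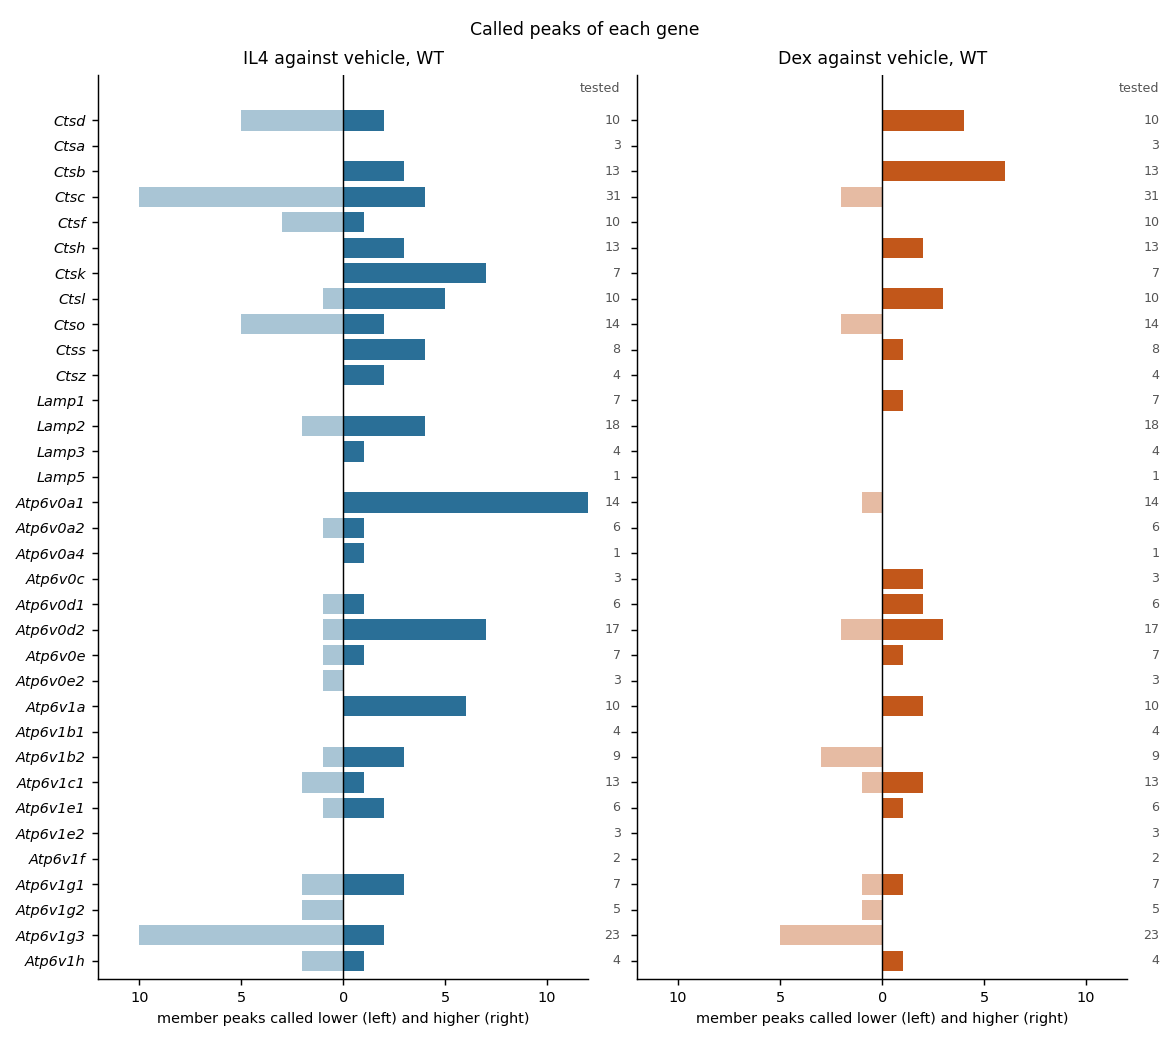
Number of peaks per gene called higher (solid bars, to the right) or lower (pale bars, to the left) with IL4 and with Dex against vehicle in WT, with the number tested in grey. Atp6v0a1 has 12 of 14 peaks higher with IL4, and Ctsb has 6 of 13 higher with Dex.

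Among the cathepsins, Ctsk, a collagen-degrading cysteine protease best known from osteoclasts, opened at all 7 of its peaks (log2 fold changes 0.21 to 2.28). The peak 0.5 kb into the gene (chr3:95499475-95499916) held 9.67, 9.60, 9.28 and 11.7 CPM in WT IL4 libraries, against 4.15, 2.91, 2.78 and 2.58 CPM in WT vehicle libraries. All IL4 libraries lay above all vehicle libraries, a 3.16-fold difference (log2 fold change 1.66 ± 0.15, edgeR adjusted p = 7.56e-16). Inside the gene, 4.1 kb from the TSS, a peak (chr3:95503162-95503360) held 1.90, 3.28, 3.36 and 2.89 CPM with IL4 and 0.768, 0.447, 0.748 and 0.309 CPM with vehicle. It rose by 2.28 ± 0.30 (adjusted p = 1.01e-09).

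Ctso, a little studied member of the papain family, changed in both directions. Its peak 11.3 kb into the gene (chr3:81943614-81944269) held 8.60, 7.90, 8.87 and 8.20 CPM in WT IL4 libraries and 1.15, 1.23, 0.854 and 0.721 CPM in WT vehicle libraries. That is an 8.29-fold difference with no overlap (3.05 ± 0.21, adjusted p = 9.98e-23). By contrast, 2 peaks assigned to Ctso but 283.0 and 303.2 kb upstream of it (chr3:81649377-81649815 and chr3:81629115-81629633) fell by -1.13 ± 0.20 and -0.93 ± 0.18. The first of them held 3.47, 2.87, 1.84 and 1.68 CPM with IL4 and 5.38, 4.69, 6.83 and 5.46 CPM with vehicle.

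Ctsl, a major lysosomal endopeptidase, had 5 of 10 peaks higher and 1 lower. The largest change was at a weak peak 11.2 kb upstream (chr13:64381572-64381781), with 1.57, 0.819, 1.22 and 1.49 CPM in WT IL4 and 0.384, 0.112, 0.427 and 0.309 CPM in WT vehicle libraries (1.94 ± 0.41, adjusted p = 6.94e-05). The peak lower with IL4 was the one at the TSS (-0.30 ± 0.07). Ctss, which trims the invariant chain of MHC class II, had 4 of 8 peaks higher and none lower (largest 0.69 ± 0.10, 3.2 kb into the gene). The aminopeptidase gene Ctsh and the endopeptidase gene Ctsb each had 3 of 13 higher and none lower.

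Ctsc encodes the dipeptidyl peptidase that activates granule serine proteases, and more of its peaks fell than rose, with 10 lower and 4 higher of 31. The largest fall was at a peak of 149 bases 40.9 kb upstream (chr7:88237091-88237239), which held 0.496, 0.468, 0.408 and 0.652 CPM in WT IL4 libraries, against 2.23, 1.56, 0.961 and 0.824 CPM in WT vehicle libraries (-1.50 ± 0.38, adjusted p = 0.000767). A stronger peak 35.0 kb upstream (chr7:88242660-88243587), which overlaps a FANTOM enhancer, held 10.9, 8.31, 9.38 and 8.57 CPM with IL4 and 16.2, 16.1, 15.1 and 14.0 CPM with vehicle. The IL4 libraries were all lower there (-0.73 ± 0.11, adjusted p = 1.06e-07). The neighbouring peak 27.5 kb upstream fell by the same amount (-0.73 ± 0.16). At 2 weak Ctsc peaks, 18.7 kb upstream (-1.01 ± 0.39, adjusted p = 0.0341) and 12.8 kb downstream (-0.82 ± 0.33, adjusted p = 0.0412), the call ended without any of 5 single WT IL4 or vehicle libraries (adjusted p up to 0.155 and 0.209).

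Ctsd, the aspartic cathepsin, lost signal around its TSS. The start-site peak (chr7:142387422-142388238), which holds both promoter E-boxes shown above, had 27.4, 26.6, 30.5 and 32.6 CPM in WT IL4 and 33.7, 38.9, 36.7 and 38.5 CPM in WT vehicle libraries. It fell by -0.34 ± 0.08 (adjusted p = 0.000165), and with loess offsets in place of TMM scaling the call was lost (adjusted p = 0.0651). A small peak 3.5 kb upstream (chr7:142391236-142391447), which overlaps a FANTOM enhancer, went the other way, with 7.27, 8.78, 8.26 and 8.75 CPM with IL4 and 2.69, 3.02, 2.56 and 3.71 CPM with vehicle (1.47 ± 0.15, adjusted p = 5.4e-14). It is named for its genotype difference, given further on. Ctsa, whose product is both a carboxypeptidase and a stabiliser of other lysosomal enzymes, had 3 tested peaks and no call with IL4 (-0.06 to 0.28).

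In the LAMP family the changes were all at Lamp2 and Lamp3 in these calls. A Lamp2 peak 9.9 kb upstream (chrX:38466034-38466652), which overlaps a FANTOM enhancer, held 10.5, 8.19, 7.95 and 5.22 CPM in WT IL4 libraries, against 1.92, 0.894, 1.28 and 1.24 CPM in WT vehicle libraries. That is a 5.77-fold difference with no overlap (2.53 ± 0.20, adjusted p = 1.42e-18). A peak of 203 bases inside Lamp2 (chrX:38422481-38422683, 20.6 kb from the nearer listed TSS) held 1.57, 1.29, 2.14 and 1.40 CPM with IL4 and 0.461, 0.112, 0.214 and 0.206 CPM with vehicle (2.50 ± 0.43, adjusted p = 1.15e-06). At the Lamp2 TSS (chrX:38455893-38456685) the IL4 libraries were lower instead, with 9.67, 9.60, 10.1 and 11.2 CPM, against 13.9, 13.4, 13.7 and 12.5 CPM with vehicle (-0.41 ± 0.11, adjusted p = 0.00111).

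Lamp3, a LAMP of mature dendritic cells, gained a weak peak 21.4 kb upstream (chr16:19727528-19728022). It held 1.90, 2.34, 2.14 and 1.30 CPM in WT IL4 and 0.384, 0.782, 0.214 and 0.309 CPM in WT vehicle libraries (2.21 ± 0.36, adjusted p = 2.86e-07). Of 9 dendritic cell marker genes, 6 had a start-site peak (median 5.20 CPM). Over the 68 peaks of these 9 genes, 20 rose and 5 fell with IL4, and their summed level was 431 to 462 CPM in WT IL4 and 378 to 400 CPM in WT vehicle libraries, so these ranges do not overlap. The part of this list in the Lamp3 value was not tested. None of the 7 tested Lamp1 peaks was called with IL4 by edgeR (-0.39 to 0.13). Lamp5 has a single peak, 81.8 kb from its TSS (0.11 ± 0.21).

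The V0 sector held the largest rise among the 296 peaks. Atp6v0d2 encodes a d subunit known from osteoclasts and fused macrophages, and its start-site peak (chr4:19922236-19922761) held 20.3, 21.9, 24.3 and 20.5 CPM in WT IL4 libraries, against 1.69, 2.12, 2.35 and 2.78 CPM in WT vehicle libraries. That is a 9.82-fold difference (3.30 ± 0.16, adjusted p = 6.97e-29). Of the 17 tested Atp6v0d2 peaks, 7 rose and 1 fell. One of the 7, 9.1 kb into the gene (chr4:19913394-19913557), held 0.909, 1.46, 1.22 and 0.466 CPM with IL4 and 0.0768, 0.447, 0.320 and 0.206 CPM with vehicle (2.06 ± 0.49, adjusted p = 0.00046), which rests on few counts.

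Ctsk is also a marker of osteoclasts. The osteoclast list of 7 genes has 55 peaks, of which 19 rose and 12 fell with IL4, the Ctsk peaks among them. Without Ctsk, the 48 peaks of the other 6 genes summed to 377 to 404 CPM in WT IL4 libraries and 372 to 406 CPM in WT vehicle libraries, and these ranges overlap.

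Atp6v0a1 encodes the widely expressed a1 subunit of the membrane sector, and 12 of its 14 peaks rose with IL4 (0.18 to 1.94), with none lower. The strongest change was 14.8 kb upstream (chr11:100994049-100995327), at 30.3, 29.1, 34.5 and 30.8 CPM in WT IL4 libraries, against 8.22, 7.49, 7.48 and 9.17 CPM in WT vehicle libraries (1.94 ± 0.11, adjusted p = 6.12e-27). The start-site peak moved little, with 53.6, 53.6, 53.9 and 57.6 CPM with IL4 and 50.7, 49.7, 47.5 and 44.8 CPM with vehicle (0.18 ± 0.07, adjusted p = 0.0329). The call at the start site ended without WT IL4 replicate 4, WT vehicle replicate 3 or WT vehicle replicate 4 (adjusted p up to 0.132). Summed over the 14 peaks, Atp6v0a1 had 142 ± 5.36 CPM with IL4 and 82.7 ± 2.15 CPM with vehicle (SD, n = 4 each).

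In the V1 sector, Atp6v1a, the catalytic A subunit, had 6 of 10 peaks higher and none lower. A peak 44.4 kb from its TSS and inside the gene (chr16:44094387-44094819) held 4.38, 4.04, 4.69 and 3.45 CPM in WT IL4 and 0.691, 0.894, 0.854 and 1.24 CPM in WT vehicle libraries (2.18 ± 0.24, adjusted p = 2.64e-12). The RefSeq promoter of Atp6v1a (chr16:44139210-44139509) lies under a peak that the authors assign to Naa50, outside the 309, which fell by -0.18 with IL4 (adjusted p = 0.0156). Atp6v1g2 also has no peak within 1 kb of its listed TSS. Its RefSeq promoters overlap a member peak with a mean of 47.9 CPM (chr17:35234951-35236628). That peak fell by -0.34 with IL4 (edgeR adjusted p = 1.78e-05). Atp6v1g3, a G subunit isoform known from kidney, had 10 of 23 peaks lower and 2 higher. Its largest fall, 26.8 kb downstream (chr1:138300410-138300620), was to 1.07, 0.878, 1.02 and 1.02 CPM in WT IL4 libraries, against 2.15, 2.91, 2.46 and 1.96 CPM in WT vehicle libraries (-1.24 ± 0.26, adjusted p = 7.58e-05). At Atp6v1h, the regulatory H subunit, 2 weak peaks 15.3 kb into and 12.7 kb upstream of the gene fell (-0.80 ± 0.29 and -0.79 ± 0.29). Their calls ended without any of 4 and any of 5 single WT IL4 or vehicle libraries (adjusted p up to 0.105 and 0.118).

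**Figure D2:**
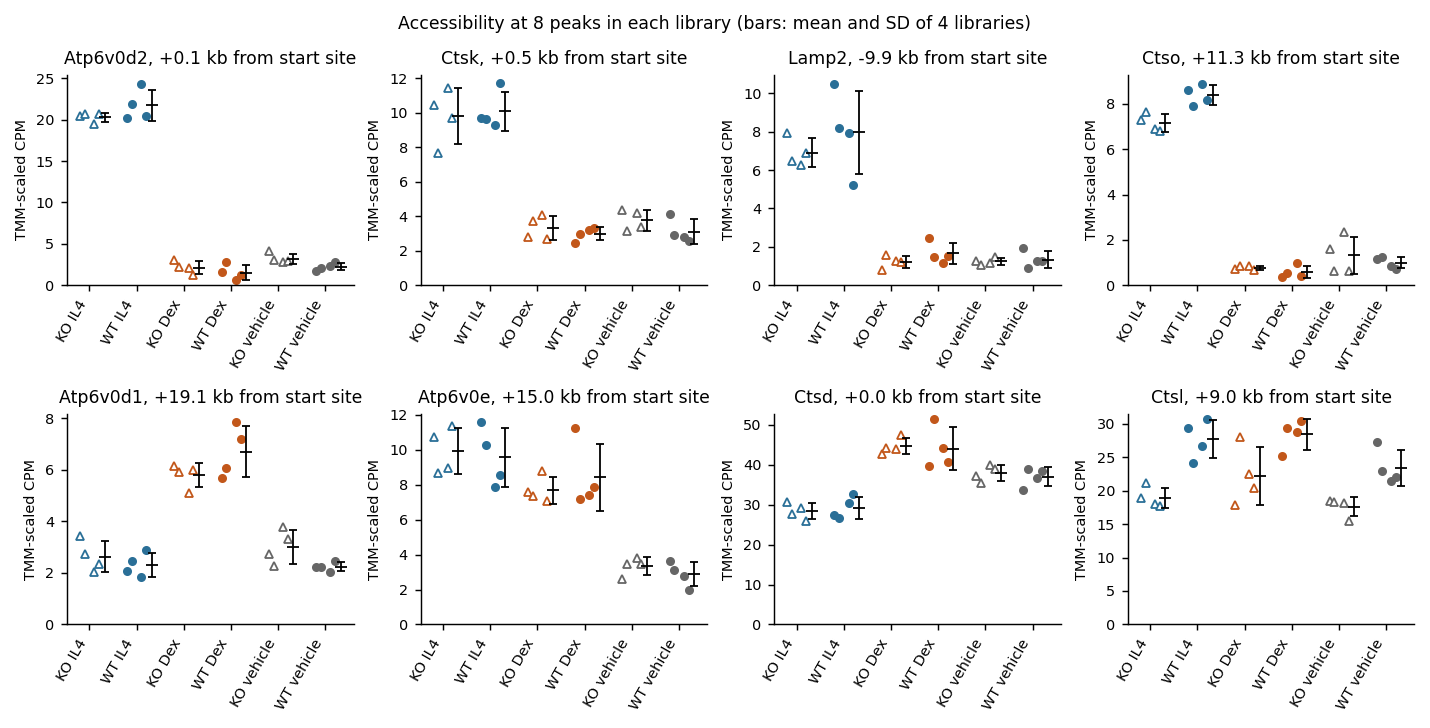
CPM in each of the 24 libraries at 8 peaks, named by gene and distance from the TSS in kb, with KO as triangles and WT as circles, and bars for mean ± SD (n = 4). At the Atp6v0d2 start site the IL4 libraries of both genotypes lie between 19.5 and 24.3 CPM and all Dex and vehicle libraries at 4.1 CPM or less, whereas at Atp6v0d1 +19.1 kb only the Dex libraries stand above the others.

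Dex opened 32 and closed 18 of the 296 peaks in WT macrophages, or 10.8% and 6.08%. Over all tested peaks the shares were 8.56% higher and 8.08% lower, so the counts were near those of the whole table. The median log2 fold change was 0.05, against 0.01 over all tested peaks. Without the shallow library WT Dex replicate 2 the counts were 31 and 19. With libraries scaled by total counts alone, 25 were higher and 23 lower, so the share of calls that were higher was 52.1% in place of 64.0%. The cathepsins had 16 of 123 peaks higher and 4 lower, and the V0 sector 8 of 57 higher and 3 lower. The V1 sector had 7 of 86 higher and 11 lower, and the LAMPs 1 of 30 higher and none lower.

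By gene, the higher calls were most numerous at Ctsb, an endopeptidase abundant in macrophages, with 6 of 13 peaks. At Ctsb the largest rises were 28.0 kb downstream inside the neighbouring gene Fdft1 (chr14:63150231-63150651, 0.67 ± 0.20), 18.7 kb upstream (chr14:63102836-63104672, 0.63 ± 0.09), 23.3 kb downstream where Ctsb and Fdft1 overlap (chr14:63144953-63146610, 0.61 ± 0.14) and 26.2 kb downstream (chr14:63148322-63149023, 0.55 ± 0.10). The last of these held 17.5, 18.1, 17.2 and 15.8 CPM in WT Dex libraries, against 11.8, 10.8, 11.7 and 11.6 CPM in WT vehicle libraries. Summed over its 13 peaks, Ctsb had 250 ± 1.98 CPM with Dex and 195 ± 6.40 CPM with vehicle (SD, n = 4 each). The macrophage list summed to 1744 to 1909 CPM in WT Dex and 1551 to 1644 CPM in WT vehicle libraries. In the same order, the 53 peaks of 7 T and NK cell genes summed to 423 to 436 and 383 to 414 CPM. The erythroid and megakaryocyte list summed to 179 to 188 and 169 to 173 CPM. Lower with Dex were the 30 peaks of 5 B cell genes (191 to 208 and 235 to 243 CPM). The dendritic cell list was lower too (361 to 366 and 378 to 400 CPM). The ranges of these lists do not overlap, and those of the other marker lists do. The part of the lists in the Dex values was not tested. The first of the 4 Ctsb calls ended without WT Dex replicate 4 or WT vehicle replicate 2 (adjusted p = 0.0577 and 0.0581).

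Ctsd had 4 of 10 peaks higher with Dex and none lower. Its start-site peak held 39.8, 51.5, 44.3 and 40.7 CPM in WT Dex libraries, against 33.7, 38.9, 36.7 and 38.5 CPM in WT vehicle libraries (0.23 ± 0.07, adjusted p = 0.018). Without WT Dex replicate 2 the value was 0.17 (adjusted p = 0.112), and without WT vehicle replicate 1 it was 0.19 (adjusted p = 0.110). The call also ended with loess offsets (0.14, adjusted p = 0.128) and with total counts alone (0.17, adjusted p = 0.0651). Ctsl had 3 of 10 peaks higher, the largest of them 24.3 kb downstream (chr13:64345912-64346589) with 3.66, 3.32, 3.28 and 3.03 CPM with Dex and 2.30, 1.34, 1.28 and 1.96 CPM with vehicle (0.89 ± 0.21, adjusted p = 0.000838). Ctsh rose 32.8 kb upstream, inside Rasgrf1 (chr9:90021107-90021893, 0.71 ± 0.18). All 7 Ctsk peaks, which rose with IL4, were not called with Dex (-0.23 to 0.29).

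The falls at cathepsin genes with Dex were at Ctsc and Ctso, with 2 peaks each. At Ctso, 14.6 kb upstream (chr3:81917461-81918565), the level was 3.73, 2.95, 3.12 and 4.57 CPM in WT Dex libraries and 5.07, 7.49, 8.22 and 7.21 CPM in WT vehicle libraries (-0.86 ± 0.16, adjusted p = 2.17e-05). The Ctsc peak 40.9 kb upstream, with 0.985, 0.369, 0.328 and 0.560 CPM with Dex, fell by -1.26 ± 0.36 against the vehicle levels given above. Without WT vehicle replicate 1 this was -0.88 (adjusted p = 0.160).

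The largest Dex gains were at V-ATPase genes. Atp6v0d1 encodes the widely expressed d1 subunit, the counterpart of d2. Its peak 19.1 kb into the gene (chr8:105546477-105547330) held 5.70, 6.09, 7.88 and 7.19 CPM in WT Dex libraries, against 2.23, 2.24, 2.03 and 2.47 CPM in WT vehicle libraries (3.02-fold; 1.60 ± 0.17, adjusted p = 2.54e-12). With IL4 the same peak held 2.07, 2.46, 1.84 and 2.89 CPM (0.05 ± 0.21). At Atp6v0e, a small V0 subunit, the peak 15.0 kb downstream (chr17:26691107-26691687) held 11.3, 7.20, 7.39 and 7.84 CPM with Dex and 3.61, 3.13, 2.78 and 1.96 CPM with vehicle (2.93-fold; 1.55 ± 0.16, adjusted p = 2.09e-12). IL4 raised it as well, to 11.6, 10.2, 7.85 and 8.57 CPM (1.73 ± 0.16).

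In the V1 sector, the Atp6v1h peak 23.6 kb into the gene (chr1:5106504-5106957) held 11.4, 8.49, 11.7 and 10.5 CPM in WT Dex libraries, against 4.76, 4.36, 4.16 and 3.50 CPM in WT vehicle libraries (1.34 ± 0.14, adjusted p = 2.95e-13). Atp6v1c1, the C1 subunit, gained 20.9 kb into the gene (chr15:38682500-38683099, 0.96 ± 0.20). The falls lay at Atp6v1g3, with 5 of 23 peaks lower, and at Atp6v1b2, the B2 subunit, with 3 of 9. Atp6v1g1, the common G1 subunit, fell 14.1 kb upstream (chr4:63530477-63530777), to 1.41, 1.85, 1.89 and 2.29 CPM in WT Dex libraries, against 3.99, 3.69, 5.55 and 3.61 CPM in WT vehicle libraries (-1.14 ± 0.20, adjusted p = 7.19e-06).

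At Atp6v1b2 the 3 falls were 8.1 kb into the gene (chr8:69110383-69110626, -1.16 ± 0.34), at the start site (chr8:69102960-69103662, -0.91 ± 0.18) and 12.8 kb downstream (chr8:69114908-69115499, -0.87 ± 0.19). The first call ended without WT vehicle replicate 2 (adjusted p = 0.107). The Atp6v1b2 start-site peak lies 859 bases from the listed TSS. Its mean of 3.97 CPM is the lowest among the strongest start-site peaks of the 25 genes, whose median is 28.0 CPM. At Atp6v1g3 the named falls were 26.8 kb downstream (-1.20 ± 0.26), 11.1 kb upstream (chr1:138262482-138262733, -0.78 ± 0.21) and 5.9 kb upstream (chr1:138267516-138268156, -0.77 ± 0.15). The call 11.1 kb upstream ended without WT vehicle replicate 1 (adjusted p = 0.0636). Atp6v0a1 had 1 called peak, 10.4 kb into the gene (chr11:101019752-101019993), at -0.94 ± 0.35 with an adjusted p of 0.0499. It held 0.915, 0, 0.574 and 0.513 CPM with Dex and 1.31, 0.894, 1.07 and 1.13 CPM with vehicle, and the call ended in 22 of the alternatives tried, among them the one without WT Dex replicate 2 (adjusted p = 0.119).

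Lamp1, which IL4 did not change at any called peak, had 1 of 7 peaks higher with Dex, 3.7 kb upstream (0.48 ± 0.10). The Ctss peak 2.8 kb upstream was at -0.11 ± 0.08 with IL4 and rose with Dex (0.54 ± 0.08). These 2 were picked after their values were seen.

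**Figure D3:**
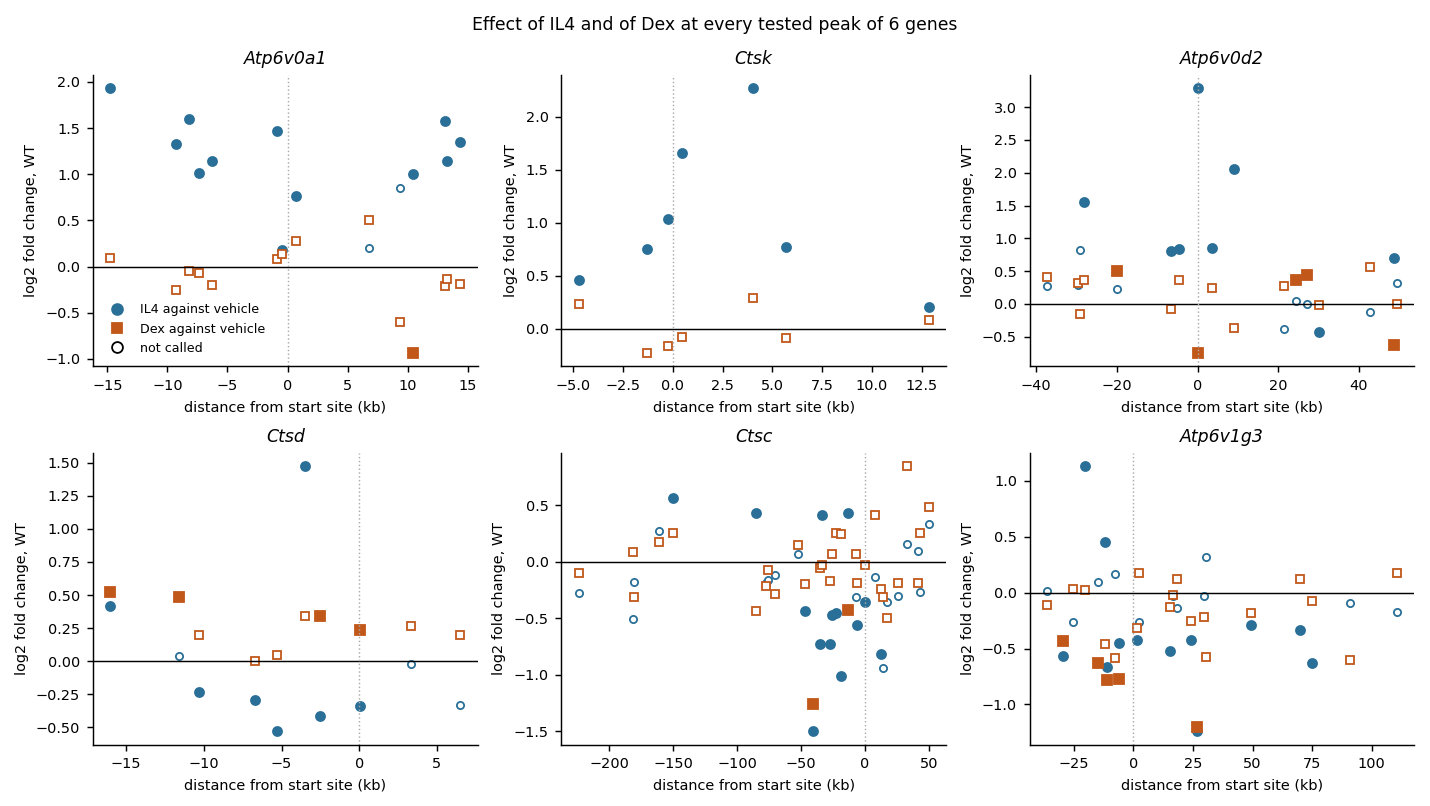
Log2 fold change against vehicle in WT for each peak of 6 genes, by distance from the TSS in kb, with IL4 as blue circles and Dex as orange squares; open symbols were not called. At each of the 7 Ctsk peaks the IL4 value lies above the Dex value, and at Ctsd the peaks lower with IL4 lie between 10.3 kb upstream and the start site.

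Set against each other in WT, IL4 and Dex differed at 82 peaks that were higher with IL4 and 75 that were lower with IL4. Over all tested peaks 23.4% were higher and 21.7% lower. With total counts alone the split was 104 and 50, so 67.5% of the calls were higher with IL4 in place of 52.2%. The median went to 0.09 in place of -0.02. The largest differences toward IL4 were the Atp6v0d2 start site (4.04 ± 0.17), Ctso 11.3 kb into the gene (3.91 ± 0.22), Atp6v0d2 9.1 kb into the gene (2.43 ± 0.49), Lamp2 9.9 kb upstream (2.24 ± 0.18) and Atp6v1a at 44.4 kb (2.04 ± 0.23). Toward Dex they were Atp6v0d1 at 19.1 kb (-1.54 ± 0.16), Ctsc 18.7 kb upstream (-1.25 ± 0.36), the Ctso peaks 283.0 and 303.2 kb upstream (-0.88 ± 0.20 and -0.80 ± 0.18) and Atp6v1h at 15.3 kb (-0.84 ± 0.27). By sector, 24 of 57 V0 peaks were higher with IL4 and 15 lower, while 1 of 10 Ctsd peaks was higher and 7 lower.

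Both treatments were compared with the same vehicle libraries, so their values are given side by side only. Of the peaks called with both, 11 were higher with both and 8 lower with both. Unlike signs were fewer: 3 were higher with Dex and lower with IL4, and 4 the reverse. The shared vehicle libraries tie these counts together, and no like share over all tested peaks was taken. The peaks named next are of unlike sign. At the Atp6v0d2 start site IL4 gave 3.30 ± 0.16 and Dex -0.75 ± 0.26. The Dex libraries held 1.55, 2.77, 0.574 and 1.17 CPM there, which overlap the vehicle libraries, and the Dex call ended without any of 5 single WT libraries (adjusted p up to 0.177). At the Ctsd start site IL4 gave -0.34 ± 0.08 and Dex 0.23 ± 0.07, and at that of Atp6v1g1 they gave -0.21 ± 0.07 and 0.22 ± 0.07. Further pairs of unlike sign, picked after their values were seen, were Ctsd 2.5 kb upstream (-0.41 ± 0.09 and 0.34 ± 0.08), and Atp6v0d2 48.8 kb downstream (0.70 ± 0.17 and -0.63 ± 0.20).

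Of the 32 start-site peaks, IL4 raised 7 and lowered 9 (median -0.06), and Dex raised 4 and lowered 2 (median 0.13). Over all 13874 start-site peaks IL4 raised 6.29% and lowered 43.0% (median -0.21), and Dex raised 8.87% and lowered 3.12% (median 0.07). The counts depended on scaling: with loess offsets IL4 raised 9 and lowered 4, with a median of 0.02, and Dex raised 2 and lowered 2. With total counts alone IL4 raised 8 and lowered 7, and Dex raised 2 and lowered 2. With a block by replicate number within each genotype, Dex raised 9 and lowered 2.

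Taking the strongest start-site peak of each of the 25 genes, IL4 lowered Atp6v1c1 (-0.55 ± 0.08), Atp6v1b2 (-0.51 ± 0.17), Lamp2, Ctsc (-0.36 ± 0.07), Ctsd, Atp6v0d1, Ctsl, Atp6v0a2 (-0.22 ± 0.08) and Atp6v1g1. It raised Atp6v0d2, Ctsk, Ctsz (0.21 ± 0.07) and Atp6v0a1. Dex raised those of Atp6v0c, the proton-binding ring subunit (0.36 ± 0.07), Atp6v1e1, the E1 subunit of the stalk (0.29 ± 0.08), Ctsd and Atp6v1g1, and lowered those of Atp6v1b2 and Atp6v0d2. The Atp6v0c peak (chr17:24168956-24169879) held 34.4, 36.2, 33.2 and 33.2 CPM in WT Dex libraries and 26.9, 26.8, 24.8 and 27.8 CPM in WT vehicle libraries, with no overlap. At Atp6v1c1 (chr15:38661650-38662490) the IL4 libraries held 21.6, 21.7, 22.0 and 23.0 CPM, against 31.9, 33.0, 32.1 and 32.1 CPM with vehicle.

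Several of these smaller calls were fragile. With loess offsets the IL4 calls at Atp6v0d1, Ctsl, Ctsd, Atp6v1g1 and Atp6v0a2 ended (adjusted p = 0.0823, 0.135, 0.0651, 0.758 and 0.420). Leaving out single libraries ended the IL4 calls at Ctsz (without WT vehicle replicate 2, 3 or 4), Atp6v0a2 and Atp6v1b2 (each without WT IL4 replicate 4 or WT vehicle replicate 1) and Atp6v1g1 (without WT IL4 replicate 2 or 3, or WT vehicle replicate 3 or 4), with adjusted p up to 0.0618, 0.160, 0.179 and 0.117. The Dex call at Atp6v1g1 ended without WT Dex replicate 2 or WT vehicle replicate 1 or 2 (adjusted p up to 0.111), with loess offsets (0.13, adjusted p = 0.161), with total counts alone (adjusted p = 0.0886) and with only the groups compared (adjusted p = 0.0550). Away from start sites, the strongest peak of each of the 34 genes rose in 8 and fell in 7 genes with IL4, and rose in 9 and fell in 0 with Dex, where 13 had an unadjusted p below 0.05. These are 23.5% and 20.6% for IL4 and 26.5% and 0.0% for Dex. Over the strongest such peak of each of 16022 genes, 17.9% were higher and 25.8% lower with IL4, and 13.7% higher and 9.56% lower with Dex. The 2 sets differ in level, with a median of 19.0 CPM for the 34 peaks and 9.49 CPM for the 16022. Stronger peaks are more easily called, so these shares are not like for like. In KO, Dex raised 11 and lowered 3 of the 34, against 11.5% and 7.48% over all genes, and IL4 raised 6 and lowered 6, against 16.8% and 21.7%.

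**Figure D4:**
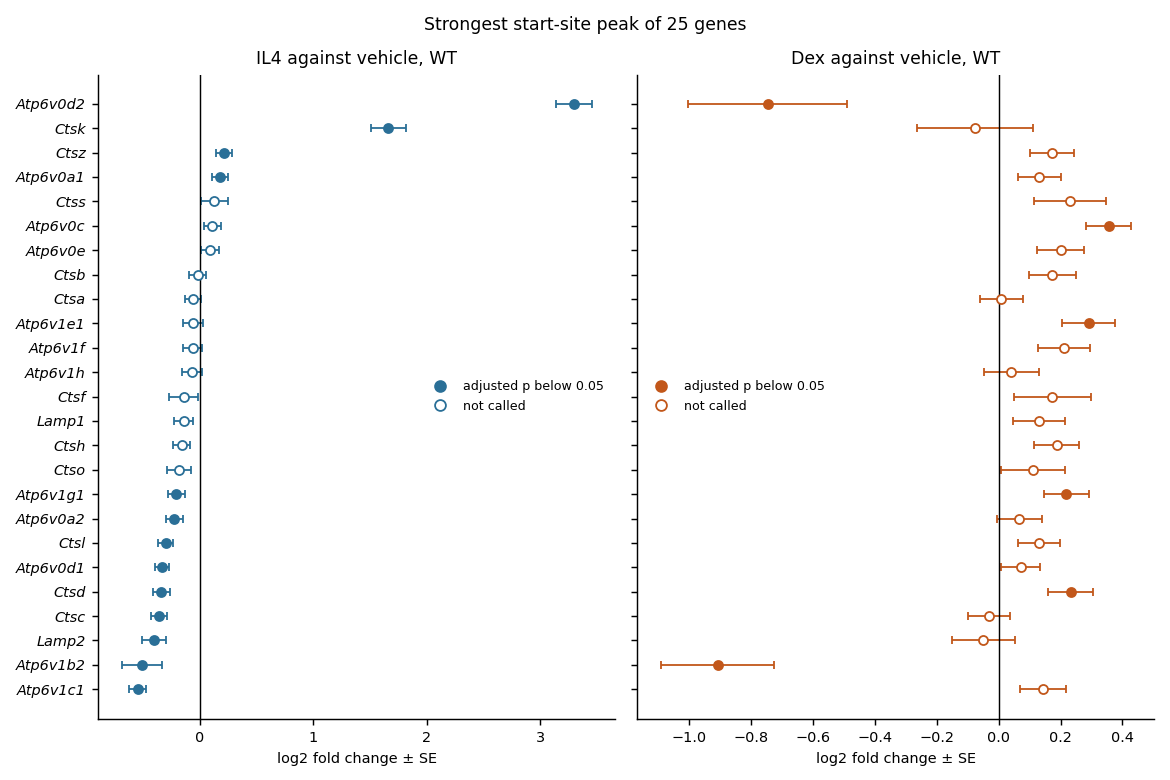
Log2 fold change ± SE of the strongest start-site peak of each of the 25 genes that have one, against vehicle in WT, with IL4 on the left and Dex on the right; filled symbols were called. Atp6v0d2 at 3.30 and Ctsk at 1.66 stand far to the right with IL4, and the other genes lie between -0.55 and 0.36 with either treatment except Atp6v1b2 and Atp6v0d2 with Dex.

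In KO macrophages IL4 raised 72 and lowered 44 of the 296 peaks, where 17.0% of all tested peaks were higher and 13.9% lower. Dex raised 36 and lowered 21, where 6.97% of all were higher and 6.63% lower. Without KO vehicle replicate 1, or without KO vehicle replicate 2, Dex lowered 13. With loess offsets Dex gave 23 higher and 23 lower, and with total counts alone 25 and 25, so 50.0% of the Dex calls were higher in place of 63.2%. The largest IL4 gains in KO were at the Atp6v0d2 start site (2.68 ± 0.15), Ctso at 11.3 kb (2.61 ± 0.21), Lamp2 9.9 kb upstream (2.47 ± 0.21), Ctsk at 4.1 kb (2.37 ± 0.32) and Lamp3 21.4 kb upstream (2.26 ± 0.37). The Atp6v0d2 start site held 20.4, 20.6, 19.5 and 20.6 CPM in KO IL4 libraries and 4.10, 2.98, 2.75 and 2.93 CPM in KO vehicle libraries.

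The largest IL4 falls in KO were Ctsc 40.9 kb upstream (-1.70 ± 0.46), Atp6v1g3 at 26.8 kb (-1.64 ± 0.28), Ctsc at 14.2 kb (chr7:88292158-88292320, -1.29 ± 0.50), Atp6v0a2 at 6.2 kb (chr5:124635193-124635357, -0.95 ± 0.36) and Ctso 283.0 kb upstream (-0.90 ± 0.21). The calls at Ctsc 14.2 kb and at Atp6v0a2 ended without any of 5 and any of 6 single KO IL4 or vehicle libraries (adjusted p up to 0.251 and 0.109). With Dex in KO, the gains were led by Atp6v1h at 23.6 kb (1.36 ± 0.14), Atp6v0e at 15.0 kb (1.19 ± 0.16), Atp6v0d1 at 19.1 kb (0.97 ± 0.17), Atp6v0a1 at 6.8 kb from its second listed start (chr11:101046437-101046724, 0.81 ± 0.26) and Atp6v0d1 at 15.8 kb (chr8:105550150-105550377, 0.79 ± 0.22). The falls were led by Lamp2 at 20.6 kb (-1.49 ± 0.48), Atp6v1g1 14.1 kb upstream (-1.14 ± 0.20), Ctso 14.6 kb upstream (-1.05 ± 0.15), Atp6v1e2 2.4 kb upstream (chr17:86950037-86950559, -1.04 ± 0.33) and Atp6v1g3 at 26.8 kb (-0.93 ± 0.25). Of these Dex results in KO, the calls at Atp6v0a1 (4 libraries), Atp6v0d1 15.8 kb (KO vehicle replicate 2), Lamp2 (4 libraries) and Atp6v1e2 (9 libraries) ended without any one of the libraries counted here (adjusted p up to 0.0946, 0.0993, 0.139 and 0.0949).

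The 2 genotypes do not share libraries. Across the 296 peaks the KO and WT log2 fold changes had a Pearson r of 0.904 for IL4 and 0.659 for Dex, and over all tested peaks r was 0.848 and 0.705. Peaks near 1 gene are not independent, and no p is given. The 99 peaks called in both genotypes with IL4 were 85.3% of the 116 KO calls and 76.2% of the 130 WT calls, and all 99 had the same sign. Over all tested peaks the shares were 79.6% and 69.6%. With Dex, 32 were called in both, which is 56.1% of the 57 KO calls and 64.0% of the 50 WT calls, against 68.2% and 55.7% over all tested peaks. The slope of KO on WT values was 0.842 for IL4 and 0.608 for Dex, against 0.765 and 0.653 over all tested peaks. These differences from all tested peaks carry no test.

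**Figure D5:**
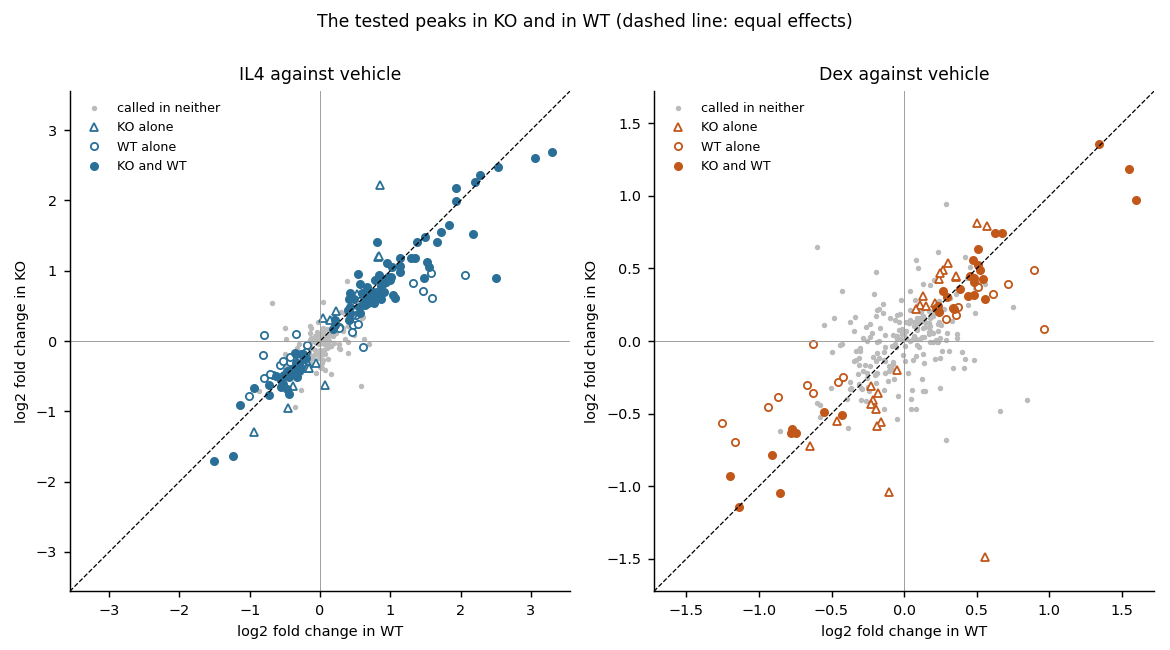
Log2 fold change of each of the 296 peaks in KO (vertical) and in WT (horizontal) for IL4 and for Dex against vehicle, with the dashed line marking equal values. The points follow the line more closely for IL4 (r = 0.904) than for Dex (r = 0.659), whose values span a smaller range.

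The test of the difference itself found 0 peaks whose Dex effect differed between genotypes, higher or lower, as among all tested peaks (0.0% higher and 0.0% lower). It found 0 for the IL4 effect in either direction, against 0.000769% and 0.00154% of all. At an unadjusted p below 0.05, edgeR gave 11 of the 296 peaks for Dex, where 3.46% of all tested peaks had one, and 13 for IL4, where 4.1% had one. DESeq2 called 0 for both at its adjusted p. For the Atp6v0d2 start site the IL4 effect in KO minus that in WT was -0.61 ± 0.25, and for the Ctsl peak described next it was -0.12 ± 0.14, both with an adjusted p of 1.

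Direct comparison of KO with WT called 2 peaks with vehicle, 1 higher and 1 lower, where 0.304% of all tested peaks were higher and 0.312% lower. It called 0 higher and 1 lower with Dex (0.436% and 0.517% of all), and 0 higher and 1 lower with IL4 (0.473% and 0.368% of all). At an unadjusted p below 0.05 there were 19 of the 296 peaks with vehicle, 26 with Dex and 25 with IL4, where 9.08%, 10.1% and 9.15% of all tested peaks had one. DESeq2 called 0 higher under each treatment. The peak called lower was the same in all 3 cases, 9.0 kb downstream of the Ctsl TSS and between genes (chr13:64360606-64362473). It held 18.9, 21.1, 18.1 and 17.7 CPM in KO IL4 libraries and 29.3, 24.2, 26.7 and 30.6 CPM in WT IL4 libraries, with no overlap (-0.54 ± 0.10, adjusted p = 0.000192).

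With Dex this Ctsl peak held 17.8, 28.0, 22.4 and 20.3 CPM in KO and 25.1, 29.4, 28.7 and 30.4 CPM in WT libraries, which overlap (-0.35 ± 0.09, adjusted p = 0.0438). With vehicle it held 18.4, 18.3, 18.2 and 15.5 CPM in KO and 27.3, 22.9, 21.4 and 22.1 CPM in WT libraries (-0.42 ± 0.10, adjusted p = 0.0261). The IL4 call held in every alternative tried for this peak. The vehicle call ended without KO vehicle replicate 3 or 4 or WT vehicle replicate 1 or 2 (adjusted p up to 0.203), and the Dex call without any of 10 single libraries (adjusted p up to 0.208). With vehicle, the small Ctsd peak 3.5 kb upstream was higher in KO, with 5.10, 5.18, 4.58 and 3.94 CPM in KO and 2.69, 3.02, 2.56 and 3.71 CPM in WT libraries (0.66 ± 0.17, adjusted p = 0.0375). That call ended without replicate 1, 2 or 3 of either genotype (adjusted p up to 0.190), and the differences with Dex (0.14 ± 0.15) and IL4 (0.08 ± 0.12) were not called.

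A wider list of 56 further lysosome genes, among them acid hydrolases, ion channels and the MiT/TFE factors, gives the surroundings. It has 425 tested peaks at 50 of the genes, of which IL4 raised 103 and lowered 67 in WT, and Dex raised 55 and lowered 19. These are 24.2% and 15.8% for IL4, against 19.3% and 16.1% of all tested peaks, and 12.9% and 4.47% for Dex, against 8.56% and 8.08%. The 425 include the 83 peaks of the 4 MiT/TFE genes, which are also counted on their own below. Those 83 peaks hold 39 of the 103 IL4 rises and 10 of the 67 falls. They thus take a larger part of the IL4 rises than of the 425 peaks, and the share of rises leans on these 4 genes. With Dex they hold 7 of the 55 rises and 6 of the 19 falls. The largest IL4 rises were at Lgmn, the asparaginyl endopeptidase that processes cathepsins (57.4 kb downstream, 2.66 ± 0.13), and at Galc, galactosylceramidase (48.6 kb downstream, 2.62 ± 0.13). With Dex the largest rise was also at Galc, at another peak 12.5 kb downstream (1.78 ± 0.22), followed by Mitf 5.4 kb upstream (1.40 ± 0.17). A peak 3.9 kb upstream of Clcn7, a lysosomal chloride exchanger, fell with both IL4 (-1.39 ± 0.21) and Dex (-1.57 ± 0.21). Near Mitf, a peak 4.1 kb upstream fell likewise (-1.24 ± 0.27 with IL4 and -1.27 ± 0.27 with Dex).

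At the genes for the MiT/TFE factors themselves, 39 of 83 peaks rose and 10 fell with IL4, which is 47.0% and 12.0%, against 19.3% and 16.1% of all tested peaks. With Dex, 7 were higher and 6 lower, or 8.43% and 7.23%, near the 8.56% and 8.08% of all. In KO, IL4 raised 23 and lowered 7 of the 83, or 27.7% and 8.43%, against 17.0% and 13.9% of all. The direct test of the IL4 effect in KO against that in WT called 0 of the 83, higher or lower. At an unadjusted p below 0.05, edgeR gave 3.61% of them, against 4.1% of all tested peaks. By gene in WT, IL4 raised 22 and lowered 2 of 45 peaks of Mitf, raised 11 and lowered 1 of 17 of Tfec, raised 6 and lowered 4 of 16 of Tfeb, and raised none and lowered 3 of 5 of Tfe3. The summed level of the 83 peaks was 693 to 736 CPM in WT IL4, 648 to 708 CPM in WT Dex and 613 to 648 CPM in WT vehicle libraries. In KO it was 709 to 728 CPM in IL4 and 619 to 661 CPM in vehicle libraries.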

How the data were processed

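ATAC-seq was measured in 24 libraries, 4 in each of 6 groups, and each title gave the group and the replicate number. The authors deposited counts of reads per peak and library, whole numbers without normalisation. They also deposited a table with log2 fold changes and p-values, unadjusted and adjusted, for part of the peaks, with a gene, a distance to its TSS and FANTOM enhancer overlaps. Per the submitters' processing notes, the build was mm10 and the tools were MACS2, featureCounts, Bowtie2, SAMtools, fastp and edgeR, listed with neither role nor version. The sources used here do not say how peaks were called and merged over libraries, or whether reads were shifted for the transposase.

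The 309 peaks were taken by gene name. Peaks without a row got the nearest listed TSS within 50 kb. The genes and all lists were chosen with earlier results of these data known. The test was that of edgeR 4.0.16 in R 4.3.3: filterByExpr left 130103 of 144411 peaks, TMM factors ran from 0.935 to 1.07, and a robust quasi-likelihood model over all 24 libraries had 1 mean for each group, with each comparison an F test adjusted over all tested peaks. The mean count of a tested peak over the 24 libraries had a median of 34 among the tested peaks, which limits the precision of a single peak. The SE is the size of the log2 fold change divided by the square root of F. The model was tested on simulated counts with known changes.

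Of the 180 peaks with a row, the authors' deposited table has 55 higher and 39 lower for IL4 in WT at the same threshold. For Dex in WT it has 30 higher and 17 lower. Over all peaks in that table the shares were 23.9% higher and 20.1% lower for IL4, and 11.4% and 11.4% for Dex. Its log2 fold changes had a slope of 1.0 on those computed here.

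Named peaks are the 10 largest rises and 10 largest falls with Dex and with IL4 in WT, up to 5 each way in the other comparisons, and the strongest start-site peak of a gene where called in WT. Of other lists, counts and the 2 largest changes each way are given. Distances run from the middle of a peak to its listed TSS, and Atp6v0a1 and Lamp2 have 2 listed start sites each. No pair of libraries agreed within sampling noise: the lowest chi-square per degree of freedom was 1.09. Alternatives were scaling by DESeq2 size factors, total counts or loess offsets (limma 3.58.1), filters on low counts, DESeq2 1.42.0, a replicate block over all libraries or, added after seeing the data, within each genotype, only the groups compared, nearer or annotated peaks only, and leaving out each library. Python 3.11.15 with pandas 2.3.3 and numpy 2.4.6 made the tables. Peak sequences were not used here; promoters come from RefSeq. The RefSeq table gave no promoter for Atp6v0a2, Atp6v0d2, Atp6v1b2, Atp6v1c1, Atp6v1g1, Atp6v1h, Ctsb and Ctsh.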

Additional observations from a re-analysis of the deposited data

Results flagged for a closer look

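In 18 of 348 groups of 4 libraries, examined at the 58 named peaks, 1 library lay far from the other 3, with a gap to the nearest of them above Dixon's 95% critical value. At 5.0% by chance, 17.4 such groups would be expected. Values are CPM, with the range of the other 3 libraries after them.

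At V-ATPase peaks, the Atp6v0a1 start site had 57.6 CPM in WT IL4 replicate 4, against 53.6 to 53.9. Atp6v0d1 0.3 kb from its TSS had 54.1 in KO vehicle replicate 4, against 50.6 to 50.8, and its peak at 15.8 kb had 1.11 in the shallow library WT Dex replicate 2, against 2.43 to 2.67. Atp6v0e at 15.0 kb had 11.3 in WT Dex replicate 1, against 7.20 to 7.84. Atp6v1c1 at 20.9 kb had 3.36 in KO IL4 replicate 3, against 2.78 to 2.82. Atp6v1g3 had 5.48 in KO IL4 replicate 4 at 5.9 kb upstream, against 3.81 to 4.03, and 1.31 in KO vehicle replicate 3 at 26.8 kb, against 2.57 to 2.70. Atp6v1h at 15.3 kb had 1.49 in KO IL4 replicate 4, against 0.831 to 0.885.

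At cathepsin peaks, Ctsl had 2.61 in KO vehicle replicate 1 at 24.3 kb, against 1.28 to 1.47, and 15.5 in KO vehicle replicate 4 at 9.0 kb, against 18.2 to 18.4. Ctsb had 23.5 in KO Dex replicate 2 at 18.7 kb upstream, against 20.0 to 20.3, and 21.0 in WT IL4 replicate 4 at 23.3 kb, against 18.0 to 18.3. The Ctsz start site had 36.9 in KO vehicle replicate 3, against 34.0 to 34.2, and 38.0 in WT vehicle replicate 1, against 31.5 to 32.2. Ctsk at 0.5 kb had 11.7 in WT IL4 replicate 4, against 9.28 to 9.67. Ctsc had 17.3 in KO vehicle replicate 2 at 35.0 kb upstream, against 12.4 to 13.0. In WT Dex replicate 3, Ctsc had 0.492 at 12.8 kb, against 1.40 to 1.48, and 0.985 at 14.2 kb, against 0.369 to 0.467.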

How the results depend on the processing

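Counts are peaks called higher and lower in the order of the words. Taking only peaks within 10 kb of a TSS gave 35 and 16 for IL4 in WT, 12 and 6 for Dex in WT, 40 and 33 for IL4 against Dex, 29 and 16 for IL4 in KO, and 15 and 10 for Dex in KO, because fewer peaks enter. With only annotated peaks, IL4 against Dex had 51 higher, and KO against WT had 0 lower with IL4, Dex and vehicle, since the Ctsl peak at 9.0 kb has no row. KO against WT had 0 lower with vehicle and with Dex under total counts alone and under loess offsets, 0 lower with Dex under the stricter filter, and 0 higher with vehicle and 0 lower with Dex both under DESeq2 and with only the groups compared, where IL4 gave 2 lower. Loess offsets gave 23 higher for Dex in KO. The cause was not tested for these scalings and tools.

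With single libraries left out, IL4 in WT kept 70 to 81 higher and 39 to 53 lower, Dex in WT 27 to 36 and 13 to 21, IL4 against Dex 72 to 83 and 61 to 76, IL4 in KO 63 to 73 and 35 to 45, and Dex in KO 24 to 42 and 13 to 21. KO against WT gave 0 to 1 higher and 0 to 1 lower with vehicle, 0 to 2 lower with Dex and 1 to 2 lower with IL4. Of the 2974 values of 91 named results under alternatives, 152 lost the call and 0 changed sign, and 62 results never lost it. DESeq2 ended the calls in WT with IL4 at Ctsc 18.7 kb upstream and 12.8 kb downstream, both Atp6v1h falls and the Atp6v1b2 start site, in KO at Ctsc 14.2 kb and Atp6v0a2 6.2 kb with IL4 and Atp6v0a1 6.8 kb with Dex, and at Ctsd in KO against WT; total counts alone ended the IL4 calls at both downstream Ctsc peaks and the Atp6v1g1 and Atp6v0a2 start sites.

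A replicate block over both genotypes gave 80 and 53 calls for IL4 and 33 and 19 for Dex in WT, and 2 lower in KO against WT under each treatment. Deviations of same-numbered libraries across genotypes correlated at -0.067 to 0.027, so the numbers were not taken to pair libraries across genotypes. Within a genotype they correlated at 0.003 to 0.202, with 9 of 24 pairs above 0.1. Pairs with unlike numbers within a genotype had a median of -0.024, with 0 of 72 above 0.1. In addition, 23 of 24 libraries correlated best with their own number within a genotype. Same-numbered libraries of a genotype thus shared some variation, which the labels do not explain and the main model leaves out. A block by number within each genotype, chosen after seeing the data, gave 83 and 59 for IL4 and 48 and 23 for Dex in WT. IL4 against Dex gave 82 and 78, and in KO there were 78 and 55 for IL4 and 43 and 24 for Dex. It gave 0 for the differences in treatment effect between genotypes. KO against WT was not fitted with this block, which ended no named call in the comparisons it covered. Depth limits the weakest peaks: those near 1 CPM rest on few counts in the shallowest library.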
